A study of Rattus norvegicus with 9 samples.

Results

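The peroxisome proliferator-activated receptors (PPARs), the estrogen-related receptors (ERRs) and the factors that build mitochondria were followed in the left ventricle of rats given angiotensin II (Ang II) with or without sodium butyrate (NaBu). The genes are Ppara, Ppard, Pparg, Ppargc1a, Ppargc1b, Esrra, Esrrg, Rxra, Nrf1 and Tfam. They were taken by gene name, and 42 transcripts carried those names. Summing the transcripts of each name gave 10 genes out of 22608, and all 10 were among the 15467 genes with counts high enough to test. RNA-seq libraries came from the hearts of Sprague-Dawley rats, labelled as 8 weeks of age with 28 days added, and there were 3 libraries per group. The groups received saline, Ang II, or Ang II together with NaBu. No group received NaBu without Ang II, and the labels give no dose and no route. Ang II is a vasoconstrictor peptide used in rodents to load the heart, and butyrate, a fatty acid made by gut bacteria, is known as an inhibitor of histone deacetylases.

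PPARs and ERRs are nuclear receptors that switch on genes for burning fatty acids and for respiration, the main source of ATP in heart muscle. PPARs bind DNA as pairs with a retinoid X receptor such as Rxra, ERRs bind without a known natural hormone, and both are driven by the PGC-1 coactivators encoded by Ppargc1a and Ppargc1b. Nuclear respiratory factor 1, encoded by Nrf1, switches on nuclear genes of the respiratory chain and Tfam, and the TFAM protein packages mitochondrial DNA and starts its transcription.

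Levels are given in CPM, that is counts relative to the library total after TMM scaling, and group values are mean ± SD with n = 3. Differences are log2 values from edgeR, with their standard error (SE), and a gene was called changed when its Benjamini-Hochberg adjusted p over all genes tested was under 0.05. CPM is not divided by transcript length, so levels are compared between libraries and not between genes. In bulk tissue, fewer cells of a type and less RNA per cell cannot be told apart.

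Total estimated counts per library ranged from 29284780 to 49865446. Cardiomyocyte markers were abundant in every library, with a summed level of 124122.9 to 181196.1 CPM over 12 markers, none of them at 0. Saline replicate 2 stood apart: its summed level of 10 atrial markers was 6038.6 CPM, against at most 361 CPM in each of the other 8 libraries, and its cardiomyocyte markers lay at a median of -0.71 log2 units from their means over all libraries. In that library 8 of the 10 regulators had their lowest value, all but Pparg and Nrf1, while 18.8% of all genes tested were lowest there. Macrophage and fibroblast markers were also highest there, at medians of 0.37 and 0.59, and saline replicate 3 came next in both (0.13 and 0.47) and in the atrial sum (361 CPM). Adipoq, Plin1 and Cidec, markers of fat cells, were at 9.2, 4.26 and 2.55 CPM in saline replicate 2 and at 0 in the other saline libraries. Other markers of the same list of 12 went the other way, with Fabp4 (301 CPM) and Dio2 (2.37 CPM) at their lowest of all libraries there. The summed level of the list in saline replicate 2, 493 CPM, was the lowest of the saline group. The part of all these markers in the differences from saline was not tested. Values without saline replicate 2 are given where they change a call or a direction or move a difference by a wide margin. Each group came as a table of its own, so a difference in processing between tables cannot be told apart from a difference between groups.

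Ventricles given NaBu with Ang II held more Tfam mRNA than saline ventricles, and Tfam was the sole regulator called changed in any of the 3 comparisons. Between NaBu and saline 5.06% of all genes were called, and the Tfam call was lost in 10 of 18 alternative settings. Ppargc1a and Esrrg were higher, and Nrf1 lower, in each NaBu library than in each library of both other groups, but none of these differences was called. Over all genes, NaBu values did not overlap those of Ang II for 35.6% and those of saline for 28.6%. Between Ang II and saline none of the 10 regulators was called. Pparg alone kept its Ang II values apart from, and above, its saline values, where 9.9% of all genes had no overlap. Ppara, Ppard, Rxra and Ppargc1b had group means within 0.22 log2 units of each other.

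**Figure D1:**
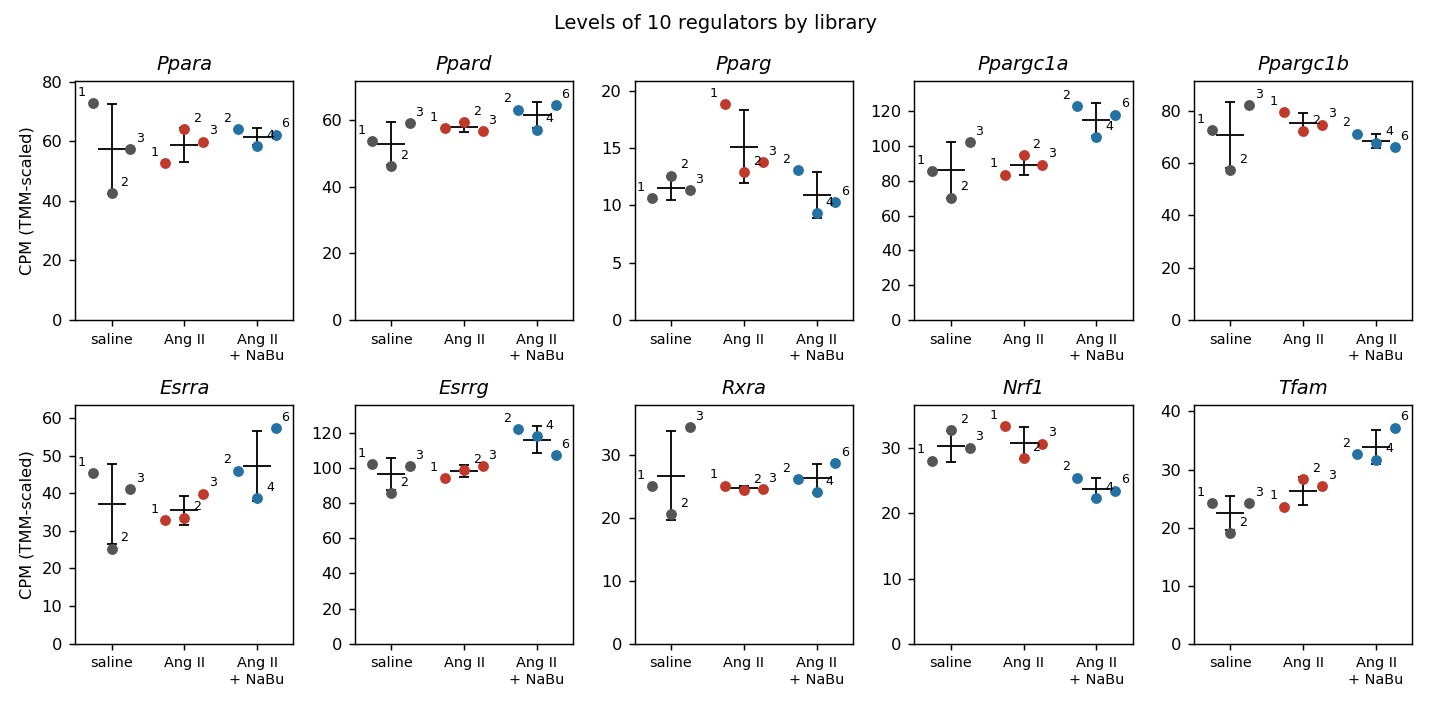
Levels of the 10 regulators in CPM (vertical axis, from 0) in each library, with 3 libraries per group on the horizontal axis. Points carry the library's number, and bars show mean ± SD (n = 3). Tfam in the Ang II + NaBu libraries (31.7 to 37.2 CPM) lies above the saline (19.1 to 24.2 CPM) and Ang II (23.6 to 28.3 CPM) libraries.

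Tfam was at 24.2, 19.1 and 24.2 CPM in saline replicates 1, 2 and 3. It was at 23.6, 28.3 and 27.1 CPM in the Ang II replicates, and at 32.7, 31.7 and 37.2 CPM in the NaBu libraries, which are numbered 2, 4 and 6. All NaBu values lay above all values of both other groups, while the saline and Ang II values overlapped. The mean was 33.9 ± 2.91 CPM with NaBu against 22.5 ± 2.94 CPM with saline, a gap of 0.59 on the log2 scale (SE 0.126, edgeR adjusted p = 0.0335), or 1.51-fold. Against Ang II, at 26.3 ± 2.42 CPM, NaBu was higher by 0.36 log2 units (SE 0.126, edgeR adjusted p = 0.135). Ang II exceeded saline by 0.23 log2 units (SE 0.126, edgeR adjusted p = 0.894). The call against saline held without saline replicate 3 (edgeR adjusted p = 0.0324) and without Ang II replicate 1 (0.0397). It was lost without saline replicate 1 (0.0513), saline replicate 2 (0.0591), Ang II replicate 2 (0.0611) or Ang II replicate 3 (0.0631). It was also lost without NaBu library 2 (0.093), 4 (0.0713) or 6 (0.147). The log2 difference stayed between 0.49 and 0.65 over the 18 alternative settings, with adjusted p-values from 0.00136 in DESeq2 to 0.147.

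The coactivator gene Ppargc1a, whose PGC-1α protein binds PPARs, ERRs and NRF1, was at 85.7, 70.3 and 102 CPM with saline. It was at 83.5, 94.7 and 89.3 CPM with Ang II and at 123, 105 and 118 CPM with NaBu. NaBu values were above those of both other groups, with saline replicate 3 nearest to them. NaBu, at 115 ± 9.38 CPM, exceeded Ang II, at 89.1 ± 5.59 CPM, by 0.37 log2 units (SE 0.135, edgeR adjusted p = 0.151). It exceeded saline, at 86.2 ± 16.0 CPM, by 0.42 log2 units (SE 0.135, edgeR adjusted p = 0.0954). Neither difference was called. The gap to saline was 0.31 without saline replicate 2 (edgeR adjusted p = 0.154), and without saline replicate 3 it was 0.56 and was called (edgeR adjusted p = 0.0324). Ang II and saline differed by 0.05 log2 units (SE 0.135). Fitting the 3 groups without saline replicate 2 gave 0.39 log2 units between NaBu and Ang II and brought the edgeR adjusted p to 0.042. Saline libraries are not part of this difference, but they share the scaling, the filter, the estimate of spread and the p adjustment with it. Over all 18 alternatives this adjusted p ranged from 0.0321 to 0.739.

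Ppargc1b encodes PGC-1β, the related coactivator. Its levels were 72.7, 57.2 and 82.1 CPM with saline, 79.5, 72.2 and 74.7 CPM with Ang II, and 71.3, 67.8 and 66.0 CPM with NaBu. The NaBu values were the lower ones next to Ang II without overlap, by a narrow gap between 71.3 and 72.2 CPM, and all lay inside the saline range. The difference of -0.14 log2 units from Ang II (SE 0.126, edgeR adjusted p = 0.546) was about the size of its standard error. Against saline the NaBu difference was -0.05, and -0.17 without saline replicate 2, neither called.

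The ratio of estimated counts of Ppargc1a to Ppargc1b within a library needs no scaling between libraries. It was 1.18, 1.23 and 1.25 with saline, 1.05, 1.31 and 1.20 with Ang II, and 1.72, 1.54 and 1.79 with NaBu. The NaBu ratios were above all others, with a mean of 1.68 ± 0.126 against 1.19 ± 0.13 with Ang II, and the log2 difference was 0.51. An exact two-sided permutation test gave p = 0.1, the smallest value that 3 against 3 libraries can reach. The pair of genes was chosen after their values were seen, so the ratio is a description. Next to Ang II, all NaBu values were higher for Ppargc1a and lower for Ppargc1b, so the outcome of this test was fixed in advance.

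Ppara, the PPAR most tied to fatty acid oxidation in the heart, was at 72.8, 42.5 and 57.3 CPM with saline. The Ang II libraries held 52.7, 64.0 and 59.9 CPM and the NaBu libraries 64.2, 58.4 and 62.3 CPM. Both treated groups fell inside the saline range, whose SD of 15.2 CPM was set by the gap between replicates 1 and 2. No Ppara difference exceeded 0.10 log2 units in the fit of all 9 libraries (SE 0.169, edgeR adjusted p from 0.765 to 0.997). Without saline replicate 2 the differences from saline changed sign, to -0.15 with Ang II and -0.07 with NaBu, neither called.

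Ppard, the more widely expressed PPAR, was at 53.8, 46.2 and 59.1 CPM with saline. It was at 57.7, 59.5 and 56.7 CPM with Ang II and at 63.2, 57.2 and 64.6 CPM with NaBu. The groups overlapped in every pair. NaBu exceeded saline by 0.22 log2 units (SE 0.106, edgeR adjusted p = 0.234), and the other differences were 0.13 for Ang II against saline and 0.09 for NaBu against Ang II. Without saline replicate 2 the differences from saline shrank to 0.14 with NaBu and 0.04 with Ang II.

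Pparg, the PPAR best known for fat cell differentiation and also present in endothelial cells and macrophages, had the lowest counts of the 10 genes, 294 to 624 per library. Its levels were 10.6, 12.6 and 11.3 CPM with saline, 18.8, 12.9 and 13.8 CPM with Ang II, and 13.1, 9.3 and 10.3 CPM with NaBu. Ang II replicate 1 stood above the rest, and the remaining Ang II values exceeded the highest saline value by little. Ang II averaged 15.1 ± 3.19 CPM against 11.5 ± 1.02 CPM with saline, a gap of 0.39 on the log2 scale (SE 0.182, edgeR adjusted p = 0.839). NaBu, at 10.9 ± 1.99 CPM, differed from Ang II by -0.47 log2 units (SE 0.182, edgeR adjusted p = 0.166), with overlap between NaBu library 2 and Ang II replicate 2. Against saline the NaBu difference was -0.08, and 0.01 without saline replicate 2. Without Ang II replicate 1 the gaps narrowed to 0.23 between Ang II and saline and -0.28 between NaBu and Ang II.

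Markers of other cells that can hold Pparg went different ways. Of 12 adipocyte markers 6 were tested, and the summed level of the list was 493 to 557 CPM with saline, 526 to 690 CPM with Ang II and 461 to 591 CPM with NaBu. Fabp4, a lipid carrier that endothelial cells also express, gave most of that sum. Of the other transcripts of the list, Ucp1 was at 0 in all libraries. Adipoq was at 0.0903, 0 and 0.116 CPM with Ang II, at 0, 2.93 and 0 CPM with NaBu and at 0, 9.2 and 0 CPM with saline. In NaBu library 4, Plin1 was at 1.34 CPM and Pck1 at 1.73 CPM, while Cidec and Retn were at 0. Between NaBu and Ang II, 2 of the 6 tested adipocyte markers were higher, Cidea (log2 0.48) and Dio2 (log2 0.26), and 4 lower (median -0.09). The 1 called was Lipe, the hormone-sensitive lipase, lower with NaBu at 87.7, 91.8 and 84.6 CPM against 126, 124 and 116 CPM (log2 -0.47). In Ang II replicate 1, the library with the most Pparg, 10 endothelial markers lay at a median of 0.25 log2 units above their means, the highest of the 9 libraries. All 10 averaged lower with NaBu than with Ang II, with a median of -0.24, 1 called, and summed levels of 1513.2 to 1764.8 CPM against 1798.9 to 2066.1 CPM. Over all genes 1.6% were called between NaBu and Ang II. Of 10 macrophage markers 8 were lower with Ang II than with saline (median -0.36), where Pparg averaged higher, and 5 were higher and 5 lower with NaBu than with Ang II (median 0.05), 0 called in either. The part of these markers in the Pparg values was not tested.

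Rxra, the retinoid X receptor that pairs with PPARs, was at 25.0, 20.6 and 34.4 CPM with saline, 25.1, 24.4 and 24.5 CPM with Ang II, and 26.1, 24.1 and 28.7 CPM with NaBu. The Ang II values were close together, with an SD of 0.344 CPM, and lay within the saline range. In the fit of all 9 libraries no Rxra difference exceeded its standard error of 0.165 (log2 -0.11 between Ang II and saline, 0.09 between the treated groups and -0.02 from saline to NaBu). The differences from saline hung on single saline libraries. Leaving out saline replicate 2 gave -0.27 with Ang II and -0.16 with NaBu, while leaving out saline replicate 3 gave 0.11 and 0.20, none called.

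Esrra encodes ERRα, a receptor that PGC-1α uses to raise respiratory genes and that acts on its own promoter. It was at 45.3, 25.3 and 41.1 CPM with saline, 32.9, 33.5 and 39.9 CPM with Ang II, and 46.0, 38.7 and 57.2 CPM with NaBu. NaBu libraries 2 and 6 were above all others, and library 4 fell between the Ang II values. The mean of 47.3 ± 9.29 CPM with NaBu exceeded that with Ang II, 35.4 ± 3.89 CPM, by 0.42 log2 units (SE 0.21, edgeR adjusted p = 0.272). Against saline, at 37.2 ± 10.6 CPM, the difference was 0.35 (SE 0.21, edgeR adjusted p = 0.34) and fell to 0.14 without saline replicate 2.

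Esrrg encodes ERRγ, the ERR that rises in heart muscle around birth. Its levels were 102, 85.7 and 101 CPM with saline, 94.3, 98.6 and 101 CPM with Ang II, and 122, 118 and 107 CPM with NaBu. All NaBu values exceeded all others. Their mean of 116 ± 7.86 CPM was above Ang II, at 98.0 ± 3.37 CPM, by 0.24 log2 units (SE 0.0997, edgeR adjusted p = 0.193). It was above saline, at 96.3 ± 9.18 CPM, by 0.27 log2 units (SE 0.0997, edgeR adjusted p = 0.138), and neither was called.

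Nrf1 ran the other way. It was at 28.1, 32.8 and 30.1 CPM with saline, 33.4, 28.5 and 30.7 CPM with Ang II, and 25.5, 22.3 and 23.5 CPM with NaBu. Each NaBu value was below each value of both other groups. NaBu averaged 23.8 ± 1.6 CPM against 30.8 ± 2.46 CPM with Ang II, a difference of -0.37 on the log2 scale (SE 0.105, edgeR adjusted p = 0.0877). Against saline, at 30.3 ± 2.37 CPM, it was -0.35 (SE 0.106, edgeR adjusted p = 0.0778). The adjusted p against Ang II was 0.0494 in edgeR without saline replicate 2 and 0.0355 in DESeq2, and ranged from 0.0355 to 0.994 over 18 alternatives.

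Within libraries, the ratio of Tfam to Nrf1 counts was 0.861, 0.582 and 0.802 with saline and 0.708, 0.995 and 0.884 with Ang II. With NaBu it was 1.28, 1.42 and 1.58, above every other library. The mean ratio of 1.43 ± 0.15 exceeded that with Ang II, 0.862 ± 0.144, by 0.74 log2 units, and that with saline, 0.748 ± 0.147, by 0.95 log2 units (exact two-sided permutation p = 0.1 for each, the smallest possible). Esrrg to Nrf1 gave 3.64, 2.61 and 3.35 with saline, 2.83, 3.46 and 3.29 with Ang II, and 4.80, 5.27 and 4.56 with NaBu. This ratio, too, had no overlap between NaBu and the rest (log2 0.61 and 0.62, exact two-sided permutation p = 0.1 for each). Both pairs were picked with their values known. Tfam and Esrrg were higher, and Nrf1 lower, in each NaBu library than in each library of both other groups. The lack of overlap and the permutation p of 0.1 therefore follow from the single genes and add no evidence to them.

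**Figure D2:**
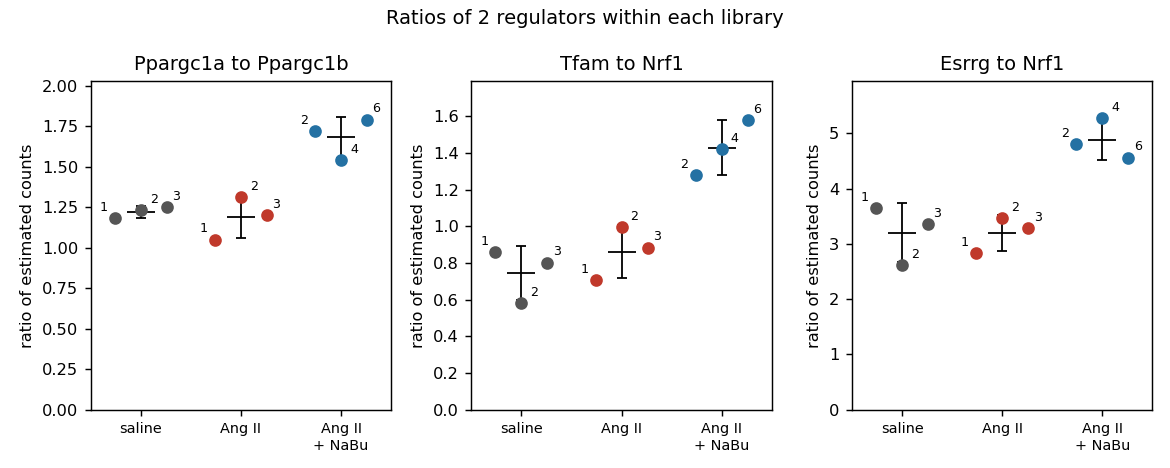
Ratio of the estimated counts of 2 regulators within each library (vertical axes, from 0), for Ppargc1a to Ppargc1b, Tfam to Nrf1 and Esrrg to Nrf1, by group on the horizontal axis. Points carry library numbers and bars show mean ± SD (n = 3). In all 3 panels the Ang II + NaBu libraries lie above the 6 others, as for Tfam to Nrf1 at 1.28 to 1.58.

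Across the 10 regulators, Ang II against saline gave 8 higher and 2 lower means, with 0 called and 0 at an unadjusted edgeR p under 0.05. Over all genes edgeR also called 0.0% in this comparison, while 918 genes (5.94%) had an unadjusted p under 0.05 and DESeq2 called 60 genes. Values did not overlap for 1 of the 10 regulators, Pparg, against 9.9% of all genes. Without saline replicate 2, Ppara, Ppargc1a, Ppargc1b and Esrrg changed sign (log2 -0.15, -0.08, -0.04 and -0.06) and Esrra moved to -0.29 and Rxra to -0.27, none of them called.

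NaBu with Ang II against Ang II gave 7 higher and 3 lower means, with 0 called against 1.6% of all genes (100 rose and 148 fell). At an unadjusted edgeR p under 0.05 there were 5 regulators, Nrf1, Tfam, Ppargc1a, Pparg and Esrrg, and 22.4% of all genes. Values did not overlap for 5 of 10 (Ppargc1a, Esrrg and Tfam higher, Ppargc1b and Nrf1 lower) against 35.6% of all genes. Against saline, NaBu gave 6 higher and 4 lower means, with 1 of 10 called, Tfam, against 5.06% of all genes (465 rose and 317 fell). Values did not overlap for 4 of 10 (Ppargc1a, Esrrg and Tfam higher, Nrf1 lower) against 28.6% of all genes. These shares are too near the background, over 10 genes, to mark the regulators as a group. Each pair of the 3 comparisons shares a group of libraries, so they do not bear on each other independently.

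Calls over all genes leaned on single libraries. Between NaBu and Ang II their number ran from 1 without Ang II replicate 1 to 1482 without saline replicate 2, and between NaBu and saline from 6 without NaBu library 6 to 1303 without saline replicate 3.

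**Figure D3:**
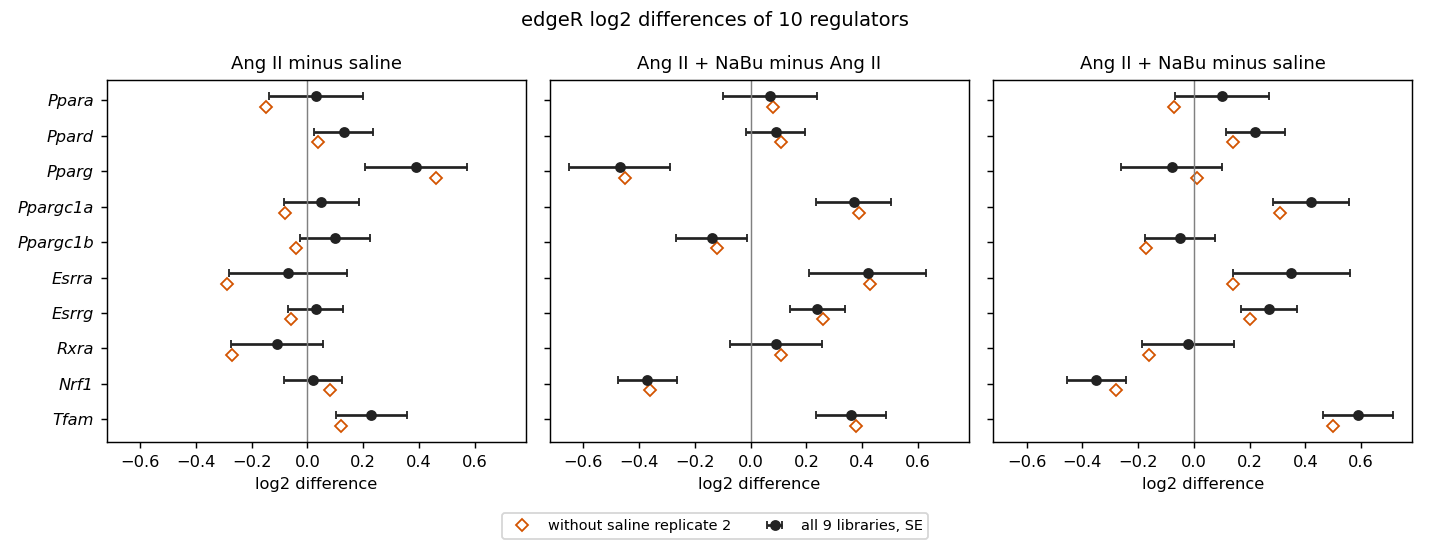
Log2 differences of the 10 regulators from edgeR (horizontal axes) in 3 comparisons. Filled points with bars show the fit of all 9 libraries ± SE, and open diamonds the fit without saline replicate 2. Tfam lies at 0.59 between Ang II + NaBu and saline and at 0.50 without that library, while the diamonds for Ppara and Ppargc1b in the left panel cross 0.

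For most of the regulators the gene sum covered several annotated transcripts. Ppara and Esrrg had 9 each, Nrf1 had 7, Ppard, Pparg and Ppargc1a had 4 each and Esrra had 2, while Ppargc1b, Rxra and Tfam had 1. Of the 42 transcripts, 24 are still listed in the RefSeq table for GRCr8. The estimated share of a gene's counts that each transcript took varied widely between libraries of a group. One Ppargc1a model, XM_008770219.1, took 41.3%, 19.5% and 5.79% in the saline libraries. It was listed at 0 in Ang II replicates 1 and 2 and took 37.3% in replicate 3, and with NaBu it took 29.4%, 45.6% and 25.7%. The curated Ppargc1a transcript NM_031347.1 took between 13.1% and 51.3% over the 9 libraries. For Ppard, the curated NM_013141.2 took 46.0%, 28.9% and 12.5% with saline, 39.3%, 4.10% and 25.2% with Ang II, and 80.7%, 53.6% and 33.8% with NaBu. The highest value came from NaBu library 2, in which a second model, XM_006256166.3, was down to 0.260%. Such exchanges between models of 1 gene cancel in the sum.

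Shares were compared for transcripts averaging at least 1 CPM in genes with more than 1 transcript. Groups did not overlap in their shares for 3 of 33 regulator transcripts between Ang II and saline, against 8.84% of all transcripts compared. For NaBu against Ang II there were 6 of 33, 1 higher and 5 lower, against 12.5%, and for NaBu against saline 4 of 33, all lower, against 12.4%. The Ppara models XM_008765676.2 and XM_006242154.3 averaged below 1 CPM over all libraries but exceeded it in each NaBu library. They had higher shares with NaBu (2.64% to 3.54% and 1.87% to 3.79%). With saline they had 0% to 0.739% and 0%. The Ppara model XM_017594680.1, below 1 CPM in each library, was lower with NaBu (0.224% to 0.341%) than with saline (0.438% to 0.824%). Among the 6 without overlap between NaBu and Ang II was the Ppargc1a model XM_017599390.1, at 44.5%, 53.8% and 32.1% with Ang II and 30.6%, 9.55% and 22.4% with NaBu. The Ppara model XM_017594681.1 was lower with NaBu (1.83%, 3.59% and 1.74%) than in both other groups (5.20% to 7.89%). The counts are near their background, so no shift of promoter or splicing is read from them.

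**Figure D4:**
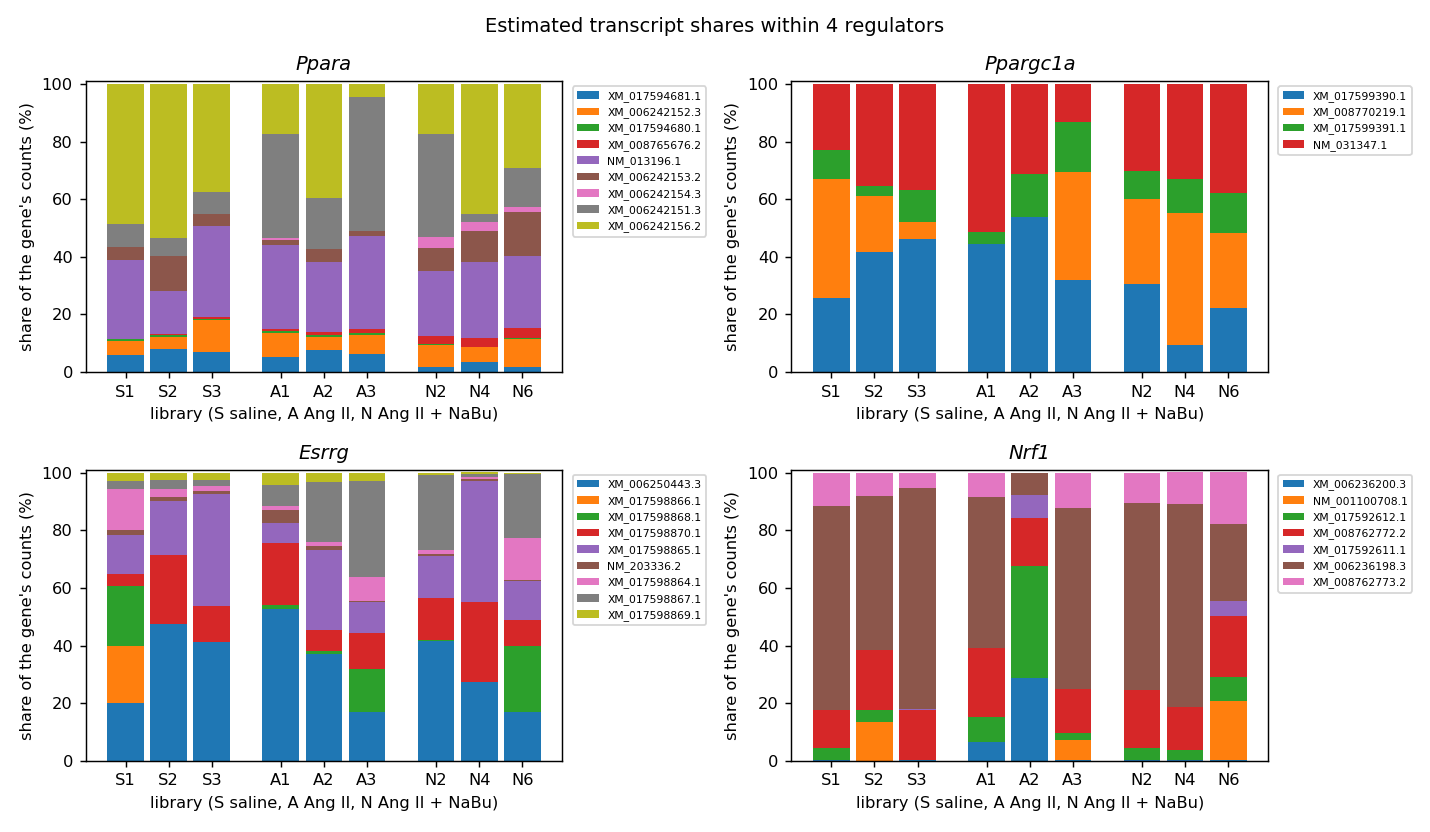
Share of each gene's estimated counts (vertical axis, percent) taken by its annotated transcripts in each library (horizontal axis) for Ppara, Ppargc1a, Esrrg and Nrf1, with 1 colour per transcript. Shares vary widely between libraries of 1 group, as for the Ppargc1a model XM_008770219.1, listed at 0 in Ang II replicates 1 and 2 and at 37.3% in replicate 3.

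The sequences upstream of 4 regulators are shown because their levels went different ways with NaBu, Tfam, Ppargc1a and Esrra averaging higher and Nrf1 lower. Each is the 250 bases before the RefSeq start site in GRCr8, 5′ to 3′ on the gene's own strand, and capitals mark a match to a searched motif.
Tfam (chr20:17355123-17355372, plus strand): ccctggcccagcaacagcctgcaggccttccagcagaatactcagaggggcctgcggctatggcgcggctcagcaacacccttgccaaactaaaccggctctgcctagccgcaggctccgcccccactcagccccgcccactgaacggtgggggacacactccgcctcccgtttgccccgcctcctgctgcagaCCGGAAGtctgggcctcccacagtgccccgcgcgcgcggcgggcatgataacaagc
Ppargc1a (chr14:63634058-63634307, plus strand): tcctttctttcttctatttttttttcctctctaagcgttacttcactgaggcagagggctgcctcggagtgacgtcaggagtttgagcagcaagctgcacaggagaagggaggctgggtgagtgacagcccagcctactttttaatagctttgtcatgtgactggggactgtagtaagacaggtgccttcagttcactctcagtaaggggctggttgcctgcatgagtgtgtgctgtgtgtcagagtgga
Esrra (chr1:213543306-213543555, minus strand): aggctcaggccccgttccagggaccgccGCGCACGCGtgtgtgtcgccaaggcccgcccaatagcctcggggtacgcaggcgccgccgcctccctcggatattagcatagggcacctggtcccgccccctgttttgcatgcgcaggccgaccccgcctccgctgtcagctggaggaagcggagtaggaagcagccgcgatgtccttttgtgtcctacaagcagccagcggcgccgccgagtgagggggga
Nrf1 (chr4:59632176-59632425, plus strand): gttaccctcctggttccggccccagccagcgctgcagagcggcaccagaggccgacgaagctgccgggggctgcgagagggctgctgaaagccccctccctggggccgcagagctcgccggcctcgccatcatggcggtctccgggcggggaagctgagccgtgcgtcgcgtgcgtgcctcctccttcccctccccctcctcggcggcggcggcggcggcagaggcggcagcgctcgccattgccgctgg

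Windows from 250 bases before to 50 after the start were searched on both strands for 5 motifs. Of the regulators, 9 had such a window, 13 windows in all. The GABP motif CCGGAAG, bound by the factor also called nuclear respiratory factor 2, lay in the Tfam window at positions -56 to -50 from the start, and 8.75% of 33469 rat windows hold it. The NRF1 motif GCGCANGCG lay in the Esrra window at -222 to -214 and in the Ppara window at -100 to -92, overlapping a match on the other strand, and 5.8% of all windows hold it. The ERR motif TNAAGGTCA (1.2% of all windows), the E-box CACGTG (6.42%) and the PPAR direct repeat, made of AGGTCA 2 times with 1 base between (0.0538%), had no match in the 13 windows. The Ppargc1a window was poor in CpG, with 4 CpG and 50.3% GC against medians of 7 CpG and 51.7% GC over all windows. Tfam had 22 CpG, Esrra 35 and Nrf1 36. A match is a run of letters and not a measured binding site.

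The list medians of partners and upstream regulators of these genes moved little with Ang II and by small amounts with NaBu, while single members moved more. Of 20 coregulators and partner receptors, 9 were higher and 11 lower with Ang II than with saline (median -0.00, 0 called), and 16 were higher when libraries were scaled by their totals only. With NaBu, 14 of 20 were higher than with Ang II (median 0.09, 0 called), where the median of all genes was -0.02, but 9 of 20 with library totals only, where all genes had a median of -0.13. Against saline, where 5.06% of all genes were called, 13 of 20 were higher (median 0.07), and 1 rose. That gene was Med1, the Mediator subunit that docks on nuclear receptors, at 73.2, 82.5 and 71.6 CPM with NaBu against 53.5, 61.0 and 54.2 CPM with saline (log2 0.43, SE 0.0961, edgeR adjusted p = 0.0367). Without any 1 of the NaBu libraries, saline replicate 1, or Ang II replicate 2 or 3, 0 members of the list were called against saline. Perm1, a muscle regulator induced by PGC-1 and ERR, had the largest difference of the list in both NaBu comparisons. It averaged 346 CPM with NaBu, against 232 CPM under Ang II and 218 CPM under saline (log2 0.58 and 0.66, edgeR adjusted p = 0.13 and 0.0751). At the low end against Ang II was Klf5 (log2 -0.44), which was not called.

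Among 20 kinases, deacetylases and factors that act on PGC-1α or its gene, 14 were higher with Ang II than with saline (median 0.04, 0 called). With NaBu 14 were higher than with Ang II (median 0.08), and 9 with library totals only (median -0.03). With TMM scaling 1 rose, where 1.6% of all genes were called. Mef2d, a transcription factor that acts on the Ppargc1a promoter in muscle, was at 178, 165 and 197 CPM with NaBu. It was at 124, 129 and 124 CPM with Ang II and at 118, 123 and 137 CPM with saline. The gap was 0.52 log2 units to both groups (SE 0.1, edgeR adjusted p = 0.0427 against Ang II and 0.0262 against saline). Against saline 14 of 20 were higher (median 0.14) and Fnip1, which encodes a folliculin partner that binds AMP kinase, rose as well (log2 0.39, SE 0.0969, edgeR adjusted p = 0.0466). Over all genes 5.06% were called against saline. Without any 1 of the NaBu libraries, saline replicate 1, or Ang II replicate 2 or 3, 0 members of this list were called in either NaBu comparison, and 0 with library totals only. Prkaa2, the AMP kinase catalytic subunit most abundant in muscle, averaged 692 CPM with NaBu against 479 CPM with Ang II (log2 0.53, edgeR adjusted p = 0.105). Prkag2, an AMP kinase subunit, had the lowest value of the list against saline both with Ang II (log2 -0.77) and with NaBu (log2 -0.71), neither called, and saline replicate 2 alone set it, at 120 CPM against 35.1 to 42.4 CPM in the 8 other libraries. Crtc2, a CREB coactivator, was lowest against Ang II (log2 -0.34, not called).

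Targets of the receptors were mostly higher with NaBu. Of 30 PPAR targets for fatty acid uptake and oxidation, 26 exceeded their Ang II level with NaBu (median 0.33, 0 called). Over all genes 47.3% were higher there and 1.6% were called. Against saline, where 44.7% of all genes were higher and 5.06% were called, 27 were higher (median 0.40) and 3 rose. The 3 were Acot2, a mitochondrial acyl-CoA thioesterase (log2 0.91, edgeR adjusted p = 0.0217), Ucp3, a mitochondrial carrier (log2 0.82, edgeR adjusted p = 0.0201), and Acadvl, the dehydrogenase for very long chains (log2 0.59, edgeR adjusted p = 0.0411). Over all alternatives 0 to 12 members were called against saline. The 12 came from DESeq2, which called 1994 genes over all. There were 0 without any 1 NaBu library, with only the groups compared in the fit or with the highest transcript per gene. Acot2 was at 231, 215 and 222 CPM with NaBu, 120, 170 and 156 CPM with Ang II, and 143, 95.6 and 117 CPM with saline. Acsl1, which activates long-chain fatty acids, had the largest difference. It was at 1103.5, 1132.1 and 1204.9 CPM with NaBu, but its 336, 894 and 866 CPM with Ang II were spread widely and no call was made (log2 0.72, edgeR adjusted p = 0.213). Angptl4, a secreted inhibitor of lipoprotein lipase, was at the other end against Ang II (log2 -0.24) and was not called.

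Of 32 ERR and PGC-1 targets of the citrate cycle and respiration, 31 exceeded their Ang II level with NaBu (median 0.40, 0 called). Against saline, where 5.06% of all genes were called, 31 were also higher (median 0.43), and 4 rose. These were Pdha1 of pyruvate dehydrogenase (log2 0.82, edgeR adjusted p = 0.0226), Cycs, which is cytochrome c (log2 0.83, edgeR adjusted p = 0.0424), the Rieske protein gene Uqcrfs1 (log2 0.80, edgeR adjusted p = 0.0459) and Idh3a of isocitrate dehydrogenase (log2 0.58, edgeR adjusted p = 0.0478). Without saline replicate 2 the median was 0.26, with 28 of 32 higher and 2 called. Without saline replicate 3 it was 0.60 with 11 called, in a fit that called 1303 genes over all. The number of list members called against saline was 15 in DESeq2, which called 1994 genes over all. It was 0 without any 1 NaBu library or Ang II replicate 2 or 3, with only the groups compared and with the highest transcript per gene. Pdha1 was at 1198.3, 1022.1 and 1160.9 CPM with NaBu, 646, 726 and 706 CPM with Ang II, and 673, 494 and 746 CPM with saline. Its NaBu values stood clear of both other groups, and against Ang II it missed the threshold (log2 0.70, edgeR adjusted p = 0.0501). The one gene lower with NaBu in both comparisons was Cox7a1, the muscle form of a cytochrome oxidase subunit (log2 -0.14 and -0.07).

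With Ang II the direction of the ERR targets depended on saline replicate 2, while the PPAR targets kept theirs at a smaller median. With all libraries 27 of 32 ERR targets were higher with Ang II than with saline (median 0.06), while without that library 3 of 32 were (median -0.14). PPAR targets went from 23 of 30 (median 0.13) to 16 of 30 (median 0.04), and 0 members of either list were called. With Ang II the highest PPAR target was Angptl4 (log2 0.57), and the ERR targets ran from Cox8b (log2 -0.18) to Ckmt2 (log2 0.32), the mitochondrial creatine kinase of muscle. Between NaBu and Ang II, the fit without saline replicate 2 gave 31 of 32 (median 0.41) and 26 of 30 (median 0.34) higher, with 19 and 8 members called. Over all genes that fit called 1482 of 15722 tested. Saline libraries enter the difference between NaBu and Ang II only through scaling, filter, spread and p adjustment. The numbers higher could therefore hardly move, while the numbers called were 0 for each list in the fit of all 9 libraries. Without Ang II replicate 1 the numbers higher were 30 of 32 (median 0.33) and 24 of 30 (median 0.23), 0 called. Without Ang II replicate 3 they were 31 of 32 (median 0.47) and 29 of 30 (median 0.37), 0 called. Over all alternatives the number of members called between NaBu and Ang II ran from 0 to 20 and from 0 to 9. Both were highest with only the groups compared in the fit, where 1802 genes were called over the whole table. Cardiomyocyte markers moved with the targets. With NaBu 11 of 12 were higher than with Ang II (median 0.23, 0 called), with summed levels of 167639.1 to 181196.1 CPM against 150402.0 to 159220.0 CPM, and with saline the range was 124122.9 to 177975.1 CPM. Their part in the target lists, in Tfam and in Ppargc1a was not tested.

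**Figure D5:**
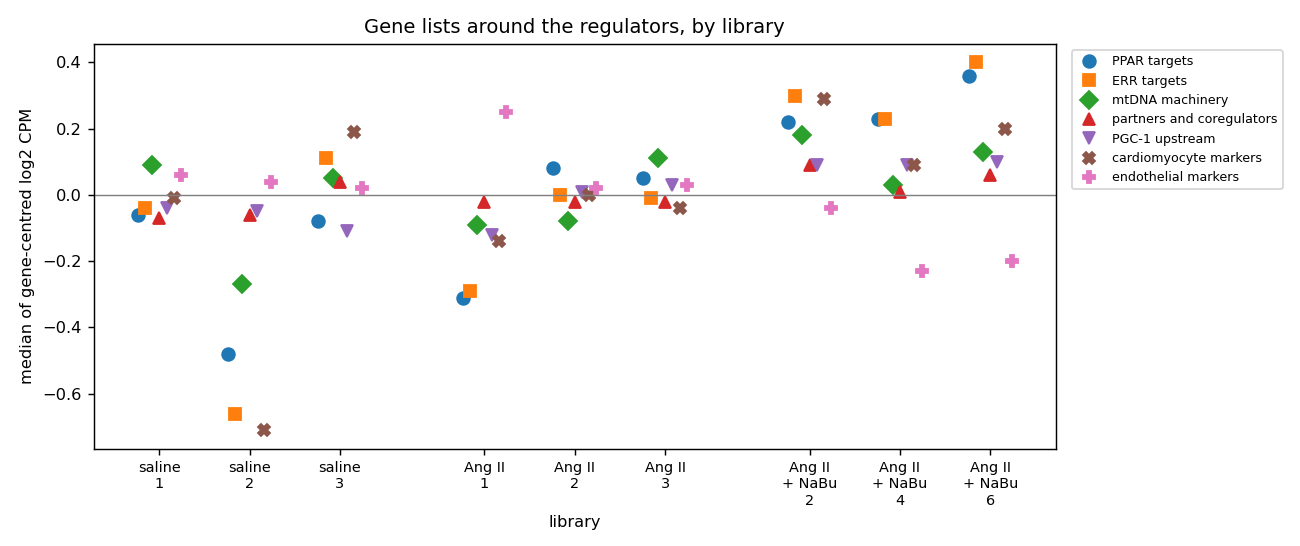
Median of gene-centred log2 CPM (vertical axis) of 5 lists around the regulators and of cardiomyocyte and endothelial markers in each library (horizontal axis). PPAR and ERR targets lie at 0.22 to 0.40 in the Ang II + NaBu libraries and at -0.48 and -0.66 in saline replicate 2, where cardiomyocyte markers lie at -0.71.

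Beside Tfam, 22 genes were followed, most of them encoding proteins that copy, transcribe or maintain mitochondrial DNA or handle its RNA. The list also holds Gabpa, Gabpb1 and Gabpb2, the subunits of GABP, which acts on nuclear promoters. With Ang II 8 were higher and 14 lower than with saline (median -0.01, 0 called), although 17 were higher with library totals only. With NaBu 15 were higher than with Ang II (median 0.16) and 1 rose, where 1.6% of all genes were called. Against saline 15 were higher (median 0.20) and 1 rose, where 5.06% of all genes were called. The gene called in each was Tfb2m, the factor that opens the mitochondrial promoter together with TFAM. It was at 61.2, 55.3 and 56.6 CPM with NaBu, 35.1, 39.9 and 40.5 CPM with Ang II, and 42.4, 32.0 and 41.9 CPM with saline. Its log2 difference was 0.58 to Ang II and 0.57 to saline (SE 0.121, edgeR adjusted p = 0.047 and 0.0327). Without any 1 Ang II or NaBu library, without saline replicate 1, with library totals only or with the highest transcript per gene, 0 members of the list were called against Ang II. Against saline 0 were called without any 1 NaBu library or Ang II replicate 2 or 3, and with only the groups compared. Mgme1, a mitochondrial exonuclease at low level, had the largest difference to saline (5.63 against 3.14 CPM, log2 0.84, not called). Gabpb2, a subunit of the GABP factor, was lowest with NaBu (18.2 CPM, against 23.4 CPM under Ang II and 25.7 CPM under saline, log2 -0.37 and -0.50, not called). With Ang II the ends of the list were Top1mt (log2 0.56) and Mterf2 (log2 -0.17), not called.

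The mitochondrial ribosomal RNAs mt-Rnr1 and mt-Rnr2 were looked at after their values were seen. The second averaged lower with NaBu, with a log2 difference of -0.36 to Ang II (SE 0.245, edgeR adjusted p = 0.415) and -0.93 to saline (SE 0.247, edgeR adjusted p = 0.0561). The first had much wider errors, at 0.39 to Ang II (SE 0.666, edgeR adjusted p = 0.778) and -0.56 to saline (SE 0.667, edgeR adjusted p = 0.653), and neither RNA was called.

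The profile over 9 libraries was compared between each regulator and 10160 other genes by the root mean square (RMS) difference of gene-centred log2 CPM, where 0 is identical. Closest to Ppargc1a was Ldb3, which encodes a Z-disc protein of heart muscle, at 0.0376. Closest to Nrf1 was Med12, a Mediator subunit, at 0.0468, and closest to Tfam were the proteasome subunit Psma6 at 0.0534 and Idh3a, itself among the ERR targets, at 0.0602. The medians over all genes were 0.299, 0.279 and 0.328 for these 3 regulators. Ppard was nearest to Mrfap1 (0.0433), Esrrg to Champ1 (0.0517), Rxra to Wbp4 (0.0611), Ppargc1b to Ptk2 (0.0642), Esrra to Apobec2 (0.0876), Ppara to Lims2 (0.0878) and Pparg to Fam219a (0.112). Between regulators the closest pairs were Esrrg with Ppard (0.111) and Ppargc1a with Tfam (0.121), and the farthest was Esrra with Pparg (0.507). All pairs rest on the same 9 libraries, saline replicate 2 among them, so these values only describe profiles.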

How the data were processed

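RNA of the rat left ventricle was measured by RNA-seq in 9 libraries, 3 per group. What the authors deposited are estimated counts, in a table for each group whose lines are transcripts. In the saline table a stray line-end character inside the last column was stripped, and those deposited values, otherwise of the same kind, are recorded under the unit "other". All values were whole numbers. Low values had local peaks at or 1 above multiples of 4, and the counts were divided by 4 in 1 alternative. Bowtie 0.12.2 and mm8, which is a mouse build, are named per the submitters' processing notes, although the IDs belong to rat RefSeq transcripts. How reads were counted, and whether by strand, is not given in the sources used here. Counts of genes with paralogs or antisense partners are uncertain for that reason. Per the labels' protocols, total RNA was extracted with Trizol and libraries followed TruSeq kit steps. Whether each library is a different animal is not in the labels, so the p-values measure only spread between these samples, which may be technical. The NaBu columns carry the numbers 2, 4 and 6 and are called libraries by those numbers.

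The 55767 transcripts were summed by gene name and compared with edgeR 4.0.16 in R 4.3.3 (TMM factors 0.8865 to 1.14, filterByExpr, quasi-likelihood test, all 9 libraries in 1 fit, common biological coefficient of variation 0.256). The prior count was 0.125 for fold changes and 2 for profiles. Alternatives covered scaling, DESeq2 1.42.0, filtering, the transcript sum, the libraries in the fit and a replicate block. Named genes are the 10 regulators, every called member of 5 lists, the extremes of each list (members averaging at least 1 CPM), and the nearest profiles among genes of at least 5 CPM. Some genes this rule names are not reported here. The members and lists were chosen with earlier results of these data known. Saline and Ang II libraries of the same number shared little of their deviations from the group mean (correlations -0.004, -0.033 and 0.008 for numbers 1, 2 and 3). The labels do not say whether the numbers pair animals, and these correlations cannot decide it. The scripts were tested on simulated counts. Promoter windows are RefSeq's, on GRCr8. Protein sequences were not used here.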

Additional observations from a re-analysis of the deposited data

How the results depend on the processing

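Of 30 regulator differences, all 30 kept their direction and their side of the threshold with DESeq2 size factors, with upper-quartile scaling and without a filter on low counts. Library totals only, which moved the median of all genes to -0.13 between NaBu and Ang II and to -0.11 between NaBu and saline, reversed Esrra between Ang II and saline (0.01) and Ppara (-0.04), Ppard (-0.02) and Rxra (-0.02) between NaBu and Ang II. Counts divided by 4 took Rxra between NaBu and saline to 0.00, from -0.02. The highest transcript per gene in place of the sum reversed 9: Ppara (-1.09), Esrra (0.27) and Nrf1 (-0.63) between Ang II and saline, Ppard (-0.60) and Esrrg (-0.05) between NaBu and Ang II, and Ppara (-0.52), Ppard (-0.54), Pparg (0.22) and Esrrg (-0.02) between NaBu and saline. Without saline replicates 2 and 3 together, Ppara (-0.31) and Esrrg (-0.06) reversed between Ang II and saline, and Ppara (-0.24), Pparg (0.04) and Rxra (0.07) between NaBu and saline. That fit has 1 saline library, which is assumed to vary like the other groups, so its calls against saline rest on a single library. No reversed difference was called. Leaving out 1 library at a time, the log2 differences that changed sign ranged as follows. Between Ang II and saline, Ppara ran from -0.15 to 0.24, Ppargc1a from -0.08 to 0.19, Ppargc1b from -0.04 to 0.22, Esrra from -0.29 to 0.10, Esrrg from -0.06 to 0.07, Rxra from -0.27 to 0.11 and Nrf1 from -0.03 to 0.09. Ppara ran from -0.00 to 0.15 between NaBu and Ang II. Between NaBu and saline, Ppara ran from -0.07 to 0.31, Pparg from -0.23 to 0.02, Ppargc1b from -0.17 to 0.08 and Rxra from -0.16 to 0.20. The number of genes called over the whole table moved most. Between Ang II and saline it was 0, with 60 in DESeq2, 1 with only the groups compared in the fit, 3 with the highest transcript, 11 without saline replicates 2 and 3, and 0 to 7 with 1 library left out. Between NaBu and Ang II it was 248, with 4 for library totals only, 1544 in DESeq2, 1802 with only the groups compared, 5 with the highest transcript, 1695 without saline replicates 2 and 3, and 1 to 1482 with 1 library left out. Between NaBu and saline it was 782, with 411 for library totals only, 1994 in DESeq2, 9 with only the groups compared, 21 with the highest transcript, 109 without saline replicates 2 and 3, and 6 to 1303 with 1 library left out. DESeq2 also called Ppargc1a between NaBu and saline (0.44, adjusted p = 0.0253) and Nrf1 between NaBu and Ang II (-0.36, adjusted p = 0.0355). With only the groups compared in the fit, edgeR called Ppargc1a (0.37, adjusted p = 0.0321) and Nrf1 (-0.38, adjusted p = 0.0448) between NaBu and Ang II and lost Tfam between NaBu and saline (0.60, adjusted p = 0.0874). Except where the construction shows it, as in fits with fewer libraries, the cause was not tested. A replicate block could be fitted for Ang II against saline, where it called 0 genes and left all 10 regulators uncalled and in the same direction (Ppara at 0.06). The NaBu columns share fewer than 2 numbers with the other groups, so no block could be fitted there. With 3 libraries per group and these spreads, a p above the threshold does not show that a regulator did not differ.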
